A study of Mus musculus with 25 samples.

Results

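Thbs1, Thbs2, Thbs3, Spp1, Sparc, Tnc, Postn, Tgfbi, Fn1 and Vcan were described across 5 murine melanoma lines. The genes were taken by symbol, mapped from the versioned Ensembl identifiers of the count tables, and made up 10 of the 55385 listed genes. Thbs2 and Spp1 were selected on their measured values, namely a level in D4M and HCmel12 above that in WT31, B16F10 luc2 and RET, and the other 8 genes were listed beside them with earlier results of these data known. Levels of the 10 genes in these groups of lines are therefore given as a description, counts of calls between the groups are printed with nothing read from them, and tests are given for comparisons within the groups. The rule for Thbs2 and Spp1 did not use these, but for the other 8 genes and the related genes earlier results of them may have been known, so that the tests are not independent of the choice.

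RNA was sequenced from untreated, sub-confluent cultures, with 5 biological replicates per line and 25 libraries in total. The study compared lines that colonize the murine liver with high or intermediate efficiency (HIM-melanoma: WT31, B16F10 luc2 and RET) with low metastatic lines (LM-melanoma: D4M and HCmel12). WT31 came from Tyr::Nras Q61K/°; INK4a-/- mice, in which the tyrosinase promoter drives the mutant Nras, and B16F10 luc2 is a commercial luciferase line. RET was generated from MT/RET mice, which carry RET under the metallothionein-I promoter, HCmel12 from a primary tumor of an HGF-CDK4(R24C) mouse, and D4M from Tyr::CreER;BrafCA;Ptenlox/lox mice. Each genotype was represented by 1 line, so that the p-values measure the spread between cultures of a line and not between tumors of that genotype. WT31, B16F10 luc2 and RET shared a growth medium, whereas HCmel12 and D4M were each kept in another, and effects of the line and of its medium cannot be told apart there.

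Matricellular proteins are secreted into the extracellular matrix, where they modulate the contact of cells with matrix, growth factors and proteases rather than serve as scaffold. Thrombospondins, osteopontin (Spp1), SPARC, tenascin C and periostin are the classical examples. They are read by integrins, CD36, CD47 and CD44 and are prominent in wounds and in tumor stroma. Fibronectin (Fn1) and the proteoglycan versican (Vcan) are matrix components in the stricter sense that bind many of these proteins.

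Between 24199083 and 25843286 estimated counts were assigned to genes per library, so that 3 counts, taken as the smallest detectable amount, corresponded to 0.116 to 0.124 CPM, the counts relative to the library total. Levels of a gene were compared between lines in CPM with TMM scaling, and levels of different genes in TPM, the analogous measure after division by transcript length. The lowest correlation of log2 CPM between libraries of the same line was 0.979, and the highest between lines was 0.948. All 7 melanocyte markers examined exceeded 3 counts in at least 1 library of every line. In D4M, however, Sox10, Tyr, Tyrp1 and Mlana were each at 0 in at least 1 library. The summed level of the 7 markers in D4M was 6.54 to 59.6 CPM, compared with 12026 to 30206 CPM in the other lines. The 59.6 CPM belonged to D4M replicate 1, while the other 4 D4M libraries held 6.54 to 12.1 CPM. D4M also had 707 to 1387 CPM over 8 fibroblast markers, with Col3a1 at 472 CPM and Col1a2 at 354 CPM, whereas Lum was at 0 and Dcn at 0.335 CPM. These markers reached 31.7 to 102 CPM in RET, 26.9 to 35.8 CPM in B16F10 luc2, 3 to 4.89 CPM in WT31 and 1.28 to 1.85 CPM in HCmel12. The 102 CPM belonged to RET replicate 3, while the other RET libraries held 31.7 to 55.6 CPM. Most of this sum was Col1a1, which reached 81 CPM. In no RET library did Pdgfrb exceed 13.6 CPM, Col1a2 6.77 CPM or Col3a1 0.54 CPM. RET replicate 3 was also the highest library of its line for Thbs1, Spp1, Sparc, Postn and Fn1. A link of these levels with the markers was not tested. Markers of macrophages and leukocytes stayed at or below 16.7 CPM in sum in every library, and the summed endothelial markers were highest in HCmel12 with 25.4 to 39 CPM, where Kdr held a mean of 30.96 CPM and Cdh5 and Emcn were at 0. HCmel12 replicate 4 differed from its line by a summed melanocyte level of 17684 CPM, where the other 4 libraries had 12026 to 13226 CPM. In bulk RNA, fewer cells expressing a gene and less RNA per cell cannot be told apart.

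Promoter sequences were available in RefSeq (GRCm38.p6) for 8 of the 10 genes, with 250 bases upstream of each annotated start. Both genes selected for their difference, Thbs2 and Spp1, are shown with Tnc and Tgfbi, which had the widest difference between D4M and HCmel12, and with Postn, whose printed window held a TBP box match close to the start. RefSeq lists a second start for Postn, Spp1 and Tnc, and the window of the start nearest to the 5′ end of the annotated gene is printed. Sequences run 5′ to 3′ on the strand of the gene up to the base before the start, and capitals mark matches, searched on both strands, to TATAAA, the core of the box bound by TBP, and to TGTGGT, a core bound by RUNX factors. The windows lie at chr17:14694263-14694512 (minus strand) for Thbs2, chr5:104434861-104435110 (plus strand) for Spp1, chr4:64047016-64047265 (minus strand) for Tnc, chr13:56609336-56609585 (plus strand) for Tgfbi and chr3:54360857-54361106 (plus strand) for Postn.
Thbs2: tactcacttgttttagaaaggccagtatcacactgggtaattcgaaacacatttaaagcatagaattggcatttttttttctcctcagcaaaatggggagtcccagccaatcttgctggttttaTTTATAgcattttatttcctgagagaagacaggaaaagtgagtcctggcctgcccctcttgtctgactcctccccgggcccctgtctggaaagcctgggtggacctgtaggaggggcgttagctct
Spp1: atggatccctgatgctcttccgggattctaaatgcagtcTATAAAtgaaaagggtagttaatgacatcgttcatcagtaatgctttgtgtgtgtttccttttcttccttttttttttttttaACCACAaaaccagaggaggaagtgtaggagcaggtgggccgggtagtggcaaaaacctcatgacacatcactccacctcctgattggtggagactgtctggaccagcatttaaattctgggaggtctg
Tnc: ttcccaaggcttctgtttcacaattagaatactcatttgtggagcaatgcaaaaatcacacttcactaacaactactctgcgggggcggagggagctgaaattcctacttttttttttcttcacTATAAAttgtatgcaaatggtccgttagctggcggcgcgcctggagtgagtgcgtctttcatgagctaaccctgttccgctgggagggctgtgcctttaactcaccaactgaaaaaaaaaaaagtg
Tgfbi: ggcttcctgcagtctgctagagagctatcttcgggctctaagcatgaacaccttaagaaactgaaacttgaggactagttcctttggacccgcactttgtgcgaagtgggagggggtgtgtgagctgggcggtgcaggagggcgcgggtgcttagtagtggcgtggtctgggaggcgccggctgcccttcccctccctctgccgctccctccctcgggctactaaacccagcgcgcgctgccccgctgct
Postn: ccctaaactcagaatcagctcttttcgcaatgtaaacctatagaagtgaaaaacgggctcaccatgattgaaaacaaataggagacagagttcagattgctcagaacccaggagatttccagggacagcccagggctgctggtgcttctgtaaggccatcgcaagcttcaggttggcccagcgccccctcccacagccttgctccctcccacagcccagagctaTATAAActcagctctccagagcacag

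The TBP box letters began 126 bases upstream of the start in Thbs2, where they lay on the opposite strand, 126 bases upstream in Tnc, 211 bases upstream in Spp1 and 26 bases upstream in Postn. The window of the other start of Tnc held the TBP box letters 205 bases upstream, and those of Postn and Spp1 held no match. The RUNX letters were found 128 bases upstream in Spp1, on the opposite strand. Of 32851 RefSeq promoters of the same length, 12.4% held the TBP box letters and 14.1% the RUNX letters. The letters of AP-1 (TGACTCA, 4.46% of promoters), of the E-box CACGTG (6.02%) and of TEAD (GGAATG, 12.6%) did not occur in the windows of the 8 genes. The share of G and C was 46.8% in Thbs2, 43.6% in Spp1, 44.8% in Tnc and 62.4% in Tgfbi, with a median of 52.4% over all promoters. These matches are a description of letters.

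D4M had the highest mean level of 8 of the 10 genes, compared with 27.4% of the 15247 genes that passed the filter on low counts. For Sparc, 1 of the 8, this held in CPM (4186 ± 346 in D4M and 3507 ± 258 in WT31, overlapping) and not in TPM, where the mean of WT31 was the higher. All 10 genes passed this filter, none of them only through D4M. For Thbs1, Thbs2, Spp1, Tnc, Tgfbi, Fn1 and Vcan every library of D4M was above all 20 other libraries, for Fn1 with TMM scaling but not in unscaled counts, an arrangement shown by 16.7% of all tested genes. For Thbs2, Spp1 and Fn1 every library of D4M and HCmel12 was above every library of HIM-melanoma, as for 4.09% of all tested genes, and this is the contrast on which Thbs2 and Spp1 were chosen. Both genes are also among those highest in D4M and those with every D4M library above all others. The other 8 genes were listed with earlier results known. These counts therefore partly restate the choice, and nothing is read from them. Thbs3 and Postn had other orders. Thbs3 was highest in B16F10 luc2 and lowest in WT31, and Postn was highest in WT31 and lowest in HCmel12.

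**Figure D1:**
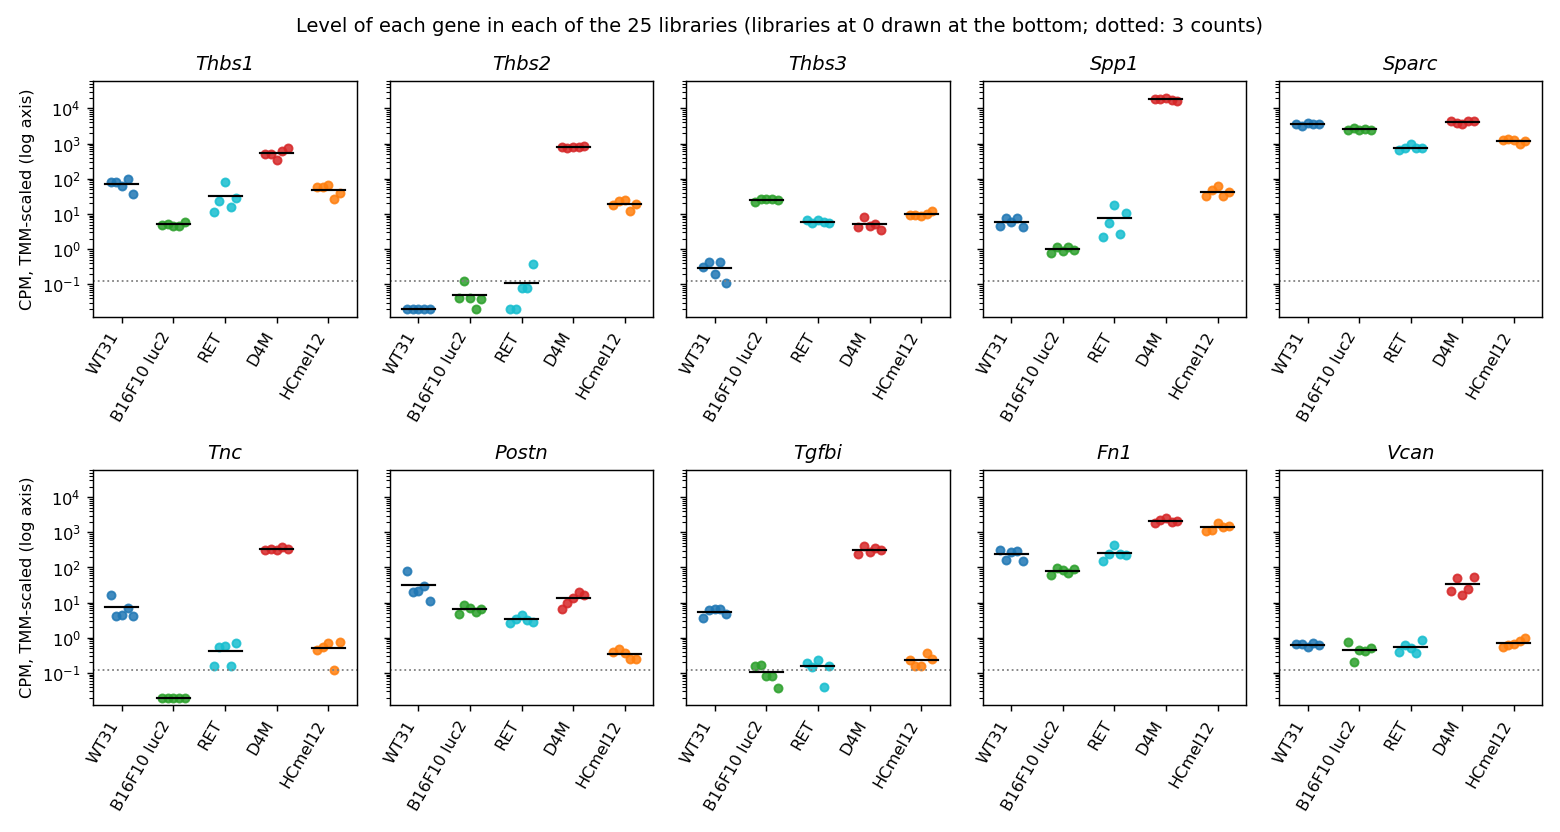
Level of the 10 genes in CPM with TMM scaling on a log axis, with 1 point per library, replicates 1 to 5 from left to right, and a bar at the mean of each line; libraries at 0 are drawn at the lower edge and the dotted line marks 3 counts. The points of D4M lie above all others for Thbs1, Thbs2, Spp1, Tnc, Tgfbi, Vcan and, with this scaling, Fn1, whereas those of B16F10 luc2 lie highest for Thbs3.

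Thbs1 and Thbs2 encode the trimeric thrombospondins, which inhibit angiogenesis through CD36 and CD47, and Thbs1 also activates latent TGF-β. Thbs2 (ENSMUSG00000023885.9, chr17:14665500-14694235, minus strand, GRCm38) had 17357, 16866, 17610, 17988 and 20107 counts in the D4M libraries. HCmel12 held 438, 578, 608, 293 and 474 counts. WT31 had no counts in any library, B16F10 luc2 had 1, 3, 1, 0 and 1, and RET had 0, 0, 2, 2 and 10. The groups did not overlap, and D4M (797 ± 38.6 CPM, SD, n = 5) was 41.4-fold above HCmel12 (19.3 ± 5.03 CPM). RET had a mean of 0.109 ± 0.16 CPM, under the 0.117 CPM to which 3 counts per library correspond in this line, and no fold is given against it. HCmel12 was at least 169-fold above WT31 and at least 159-fold above B16F10 luc2, computed against 3 counts per library. RET replicate 5 held 10 of the 14 counts of its line. Without it the fitted log2 difference of B16F10 luc2 from RET turned from -0.24 to 0.41, and neither value passed the test (adjusted p = 0.85 and 0.74 in limma).

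Thbs1 (ENSMUSG00000040152.8, chr2:118111876-118127133, plus strand) was detected in every library. D4M had 10793, 11314, 7872, 13930 and 17200 counts and B16F10 luc2 had 121, 127, 112, 111 and 158 counts. WT31 ranged from 1014 to 2485 counts, HCmel12 from 678 to 1617 and RET from 284 to 2109. D4M (540 ± 144 CPM) thus stood above and B16F10 luc2 (5.07 ± 0.626 CPM) below all other lines, while WT31 overlapped with HCmel12 and HCmel12 with RET. In the RET libraries the counts were 284, 645, 2109, 389 and 751, a mean of 32.6 ± 29.1 CPM, which became 19.9 ± 8.02 CPM without replicate 3. That library also had the highest summed fibroblast markers of its line (102 CPM), most of it from Col1a1 alone (81 CPM). Thbs1 was lower in B16F10 luc2 than in WT31 (log2 fold change of WT31 against B16F10 luc2 3.75, SE 0.54, adjusted p = 8.1e-07 in limma) and than in RET (log2 fold change of B16F10 luc2 against RET -2.32, SE 0.57, adjusted p = 0.0012).

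Thbs3 (ENSMUSG00000028047.11, chr3:89215180-89226837, plus strand) encodes a pentameric thrombospondin that lacks the antiangiogenic repeats of Thbs1 and Thbs2. B16F10 luc2 had 534, 647, 634, 657 and 667 counts, and WT31 had 8, 11, 5, 11 and 3. HCmel12 ranged from 217 to 295 counts, RET from 146 to 168 and D4M from 84 to 184. The order was B16F10 luc2 (25.4 ± 2.41 CPM), HCmel12 (9.78 ± 1.28), RET (6.08 ± 0.543), D4M (5.18 ± 1.78) and WT31 (0.29 ± 0.137), and only RET and D4M overlapped. Thbs3 was lower in D4M than in HCmel12, opposite to the other 9 genes (log2 fold change -0.96, SE 0.16, adjusted p = 7.7e-06). It was lower in WT31 than in B16F10 luc2 by 6.50 ± 0.32 (SE) on the log2 scale (adjusted p = 9.4e-16) and than in RET by 4.44 ± 0.33 (adjusted p = 4.9e-12). In the annotation 6.59% of the exonic bases of Thbs3 overlap with Mtx1 on the opposite strand, and reads of both genes could not be separated there if the counting ignored strand.

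Spp1 (ENSMUSG00000029304.14, chr5:104435118-104441050, plus strand) encodes osteopontin, a phosphorylated ligand of αv integrins and CD44. D4M had 415265, 413155, 437024, 401311 and 386645 counts. HCmel12 had 799, 1206, 1510, 796 and 1016 counts, and B16F10 luc2 had 20, 28, 22, 27 and 25. WT31 ranged from 115 to 196 counts and RET had 56, 146, 443, 67 and 268. D4M was 425-fold above HCmel12, HCmel12 was 5.64-fold above RET, and RET and WT31 overlapped. In each of the 5 D4M libraries Spp1 took more counts than any other gene, with 1.51% to 1.74% of the library, and by TPM it ranked first or second. In HCmel12 it ranked between 3762 and 5870 by counts. Between WT31 and RET no difference was found (log2 fold change -0.00, SE 0.39, adjusted p = 1), and this value became 0.39 without RET replicate 3 (adjusted p = 0.33). B16F10 luc2 was lower than WT31 (log2 fold change of WT31 against B16F10 luc2 2.51, SE 0.60, adjusted p = 0.00051) and lower than RET (-2.52, SE 0.60, adjusted p = 0.00094), and both calls were lost when no filter on low counts was applied (adjusted p = 0.35 and 0.41). The predicted gene Gm42793 overlaps with Spp1 on the same strand over 18.75% of its exonic bases, and 14.3% of the 31-base sequences of Spp1 also occur there, so that the authors' tool could divide reads between the genes.

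Sparc (ENSMUSG00000018593.13, chr11:55394500-55423183, minus strand) encodes a collagen-binding protein of basement membranes and was high in every line. D4M had 95379, 88780, 82977, 100268 and 104470 counts, and WT31 had 92557, 80881, 96363, 92754 and 98631, so that both lines overlapped. B16F10 luc2 ranged from 59697 to 65932 counts, HCmel12 from 24003 to 33126 and RET from 16259 to 24030. B16F10 luc2 lay apart from all other lines, and RET lay below HCmel12 after TMM scaling (763 ± 112 and 1209.8 ± 142 CPM), while in counts HCmel12 replicate 4 was just under RET replicate 3. The within-group differences all passed the test. WT31 was higher than B16F10 luc2 by 0.46 (SE 0.09, adjusted p = 3.3e-05) and than RET by 2.21 (SE 0.09, adjusted p = 1e-17) on the log2 scale, B16F10 luc2 was higher than RET by 1.75 (SE 0.09, adjusted p = 8.9e-15), and D4M was higher than HCmel12 by 1.80 (SE 0.09, adjusted p = 3.9e-16).

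Compared per transcript length, Sparc was the most abundant of the 10 genes in 4 of the 5 lines, with 2677 ± 183 TPM in WT31, 1764 ± 97.4 in B16F10 luc2, 825 ± 123 in HCmel12 and 530.3 ± 89.9 in RET (n = 5). In D4M Spp1 had 18975 ± 953 TPM and Sparc 2635 ± 282 TPM (n = 4, replicates 2 to 5). The 10 genes summed to 22542 ± 683 TPM in D4M, 2778 ± 186 in WT31, 1797 ± 102 in B16F10 luc2, 1153 ± 164 in HCmel12 and 602 ± 125 in RET. Sparc made up 96.4% of this sum in WT31, 98.2% in B16F10 luc2, 88.6% in RET and 71.5% in HCmel12. In D4M Spp1 made up 84.1% and Sparc 11.7%. Fibronectin contributed 22.4% in HCmel12 and 7.91% in RET.

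**Figure D2:**
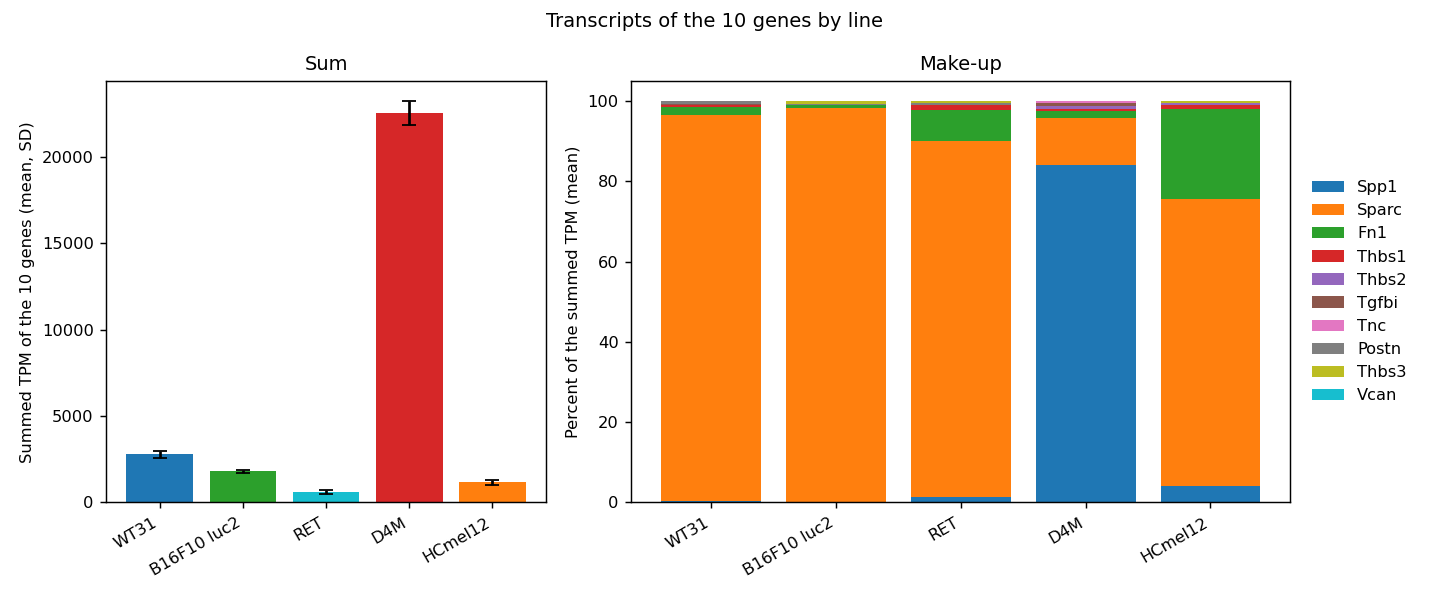
Left, summed TPM of the 10 genes per line as mean with SD (n = 5 libraries, 4 for D4M); right, mean percent of this sum taken by each gene. D4M has 22542 TPM, 84.1% of it from Spp1, while Sparc takes 71.5% to 98.2% in the other lines.

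Tenascin C (Tnc) is an anti-adhesive hexameric glycoprotein of wound edges and tumor stroma. Tnc (ENSMUSG00000028364.15, chr4:63959785-64047015, minus strand) had 7020, 7305, 6828, 8612 and 7950 counts in D4M. WT31 had 439, 111, 114, 186 and 114 counts, HCmel12 3 to 19, RET 4 to 18, and B16F10 luc2 none in any library. D4M (335 ± 29.5 CPM) was 45.6-fold above WT31 (7.33 ± 5.36 CPM), WT31 was 14-fold above HCmel12, and HCmel12 and RET overlapped. Both RET and WT31 were above B16F10 luc2, by at least 3.56-fold and at least 60.5-fold against 3 counts per library (adjusted p = 0.00066 and 2.5e-09). WT31 was higher than RET by 4.03 on the log2 scale (SE 0.54, adjusted p = 2.1e-07). On log2(TPM + 1) the difference of B16F10 luc2 from RET no longer passed the test (adjusted p = 0.59).

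Tgfbi encodes a TGF-β-induced fasciclin domain protein that binds collagen and integrins, and Postn encodes periostin, which shares its fasciclin domains. Tgfbi (ENSMUSG00000035493.10, chr13:56609523-56639562, plus strand) had 5168, 9457, 6142, 7980 and 7186 counts in D4M and 99, 164, 169, 168 and 125 in WT31. The other 15 libraries had 1 to 9 counts. D4M (318 ± 71.4 CPM) was 57.6-fold above WT31, and WT31 (5.52 ± 1.26 CPM) was 23.6-fold above HCmel12, while HCmel12, RET and B16F10 luc2 overlapped. Within HIM-melanoma, Tgfbi was higher in WT31 than in B16F10 luc2 by 5.55 (SE 0.57, adjusted p = 2.3e-09) and than in RET by 5.10 (SE 0.53, adjusted p = 3.1e-09) on the log2 scale.

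Postn (ENSMUSG00000027750.16, chr3:54361109-54391037, plus strand) followed another order. WT31 had 2089, 541, 554, 793 and 307 counts and D4M had 140, 215, 314, 445 and 387. B16F10 luc2 ranged from 121 to 212 counts, RET from 66 to 115 and HCmel12 from 6 to 12. WT31 (32.6 ± 26.9 CPM) and D4M (13.2 ± 5.33) overlapped, as did D4M and B16F10 luc2 (6.54 ± 1.57), and HCmel12 (0.346 ± 0.103) was below all other lines. WT31 replicate 1 was the highest library of its line for both Postn and Tnc, and without it the mean of Postn in WT31 was 21 ± 7.83 CPM. Postn was higher in WT31 than in RET (log2 fold change 2.98, SE 0.50, adjusted p = 7.7e-06) and B16F10 luc2 (2.03, SE 0.41, adjusted p = 9.8e-05). For B16F10 luc2 against RET the log2 fold change was 0.96 (adjusted p = 0.18), and this comparison passed without WT31 replicate 1 (adjusted p = 0.033), in a fit of these 2 lines alone (adjusted p = 0.00053) and with edgeR (0.039) or DESeq2 (0.034).

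Fn1 (ENSMUSG00000026193.15, chr1:71585520-71653200, minus strand) encodes fibronectin, the adhesive glycoprotein on which many matrix fibrils assemble. D4M had 39401, 49357, 58778, 44104 and 48175 counts and HCmel12 had 26759, 28605, 44517, 34045 and 38205. RET ranged from 3979 to 11311 counts, WT31 from 4247 to 8329 and B16F10 luc2 from 1561 to 2402. D4M (2127 ± 308 CPM) was 1.53-fold above HCmel12 (1389.5 ± 301 CPM), HCmel12 was 5.27-fold above RET, and RET and WT31 overlapped. The libraries of D4M and HCmel12 overlapped in counts and did not overlap after TMM scaling. The difference of D4M from HCmel12 was 0.63 on the log2 scale (SE 0.22, adjusted p = 0.011) and did not pass when libraries were scaled by their size alone (0.45, adjusted p = 0.059). B16F10 luc2 was lower than WT31 (log2 fold change of WT31 against B16F10 luc2 1.55, SE 0.22, adjusted p = 7.6e-07) and than RET (-1.64, SE 0.22, adjusted p = 8e-07), and WT31 and RET differed by -0.10 (SE 0.22, adjusted p = 0.7).

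Vcan (ENSMUSG00000021614.16, chr13:89655312-89742509, minus strand) encodes versican, a large chondroitin sulfate proteoglycan that binds hyaluronan. D4M had 475, 1130, 367, 562 and 1261 counts, and the other 20 libraries had 5 to 25. D4M (33.4 ± 17.3 CPM) was 45.5-fold above HCmel12, and HCmel12, WT31, RET and B16F10 luc2 overlapped from each line to the next. No difference among WT31, B16F10 luc2 and RET passed the test (log2 fold changes 0.55, 0.27 and -0.28, adjusted p = 0.55, 0.77 and 0.81 in limma).

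In the comparison of D4M with HCmel12, all 10 genes were called (adjusted p under 0.05 in limma with voom weights over 15247 genes, n = 5 libraries per line), 9 higher and Thbs3 lower in D4M, where 72.5% of all tested genes were called in either direction. Of all tested genes, 5617 were called higher and 5437 lower in D4M. The differences on the log2 scale were 10.32 for Tgfbi (SE 0.47, adjusted p = 1e-16), 9.48 for Tnc (SE 0.49, adjusted p = 1.5e-15), 8.77 for Spp1 (SE 0.19, adjusted p = 5.6e-23), 5.41 for Thbs2 (SE 0.13, adjusted p = 2.1e-22), 5.35 for Vcan (SE 0.54, adjusted p = 1.5e-09), 5.12 for Postn (SE 0.98, adjusted p = 4e-05) and 3.47 for Thbs1 (SE 0.31, adjusted p = 1.2e-10). The 10 calls also held without D4M replicate 1 and HCmel12 replicate 4, the libraries that stood apart in their melanocyte markers, where Tgfbi differed by 10.59, Spp1 by 8.67 and Fn1 by 0.70 on the log2 scale. The summed melanocyte markers were lower (at most 59.6 against at least 12026 CPM) and the summed fibroblast markers higher in D4M than in HCmel12 (at least 707 against at most 1.85 CPM), and their part in the result was not tested.

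Within HIM-melanoma, 8 genes were called between WT31 and B16F10 luc2, 7 of them higher in WT31, where 72.8% of all tested genes were called (5555 higher and 5550 lower in WT31). Between WT31 and RET 6 genes were called, with Thbs1, Sparc, Tnc, Postn and Tgfbi higher and Thbs3 lower in WT31, beside 73.2% of all tested genes. The difference of Thbs1 in this comparison was 1.43 (SE 0.35, adjusted p = 0.00064). Thbs2, with no counts in WT31 and 0 to 10 in RET libraries, was not called (-1.84, adjusted p = 0.069 in limma). It passed with edgeR (adjusted p = 0.02), DESeq2 (0.00014), no filter on low counts (0.034) or a replicate block (0.012). Between B16F10 luc2 and RET 6 genes were called, beside 51.5% of all tested genes, with Thbs3 and Sparc higher and Thbs1, Spp1, Tnc and Fn1 lower in B16F10 luc2. Thbs3 was higher in B16F10 luc2 than in RET by 2.06 (SE 0.13, adjusted p = 1.7e-12) on the log2 scale. Among 10 genes, 6 to 8 calls lay close to the shares of all genes.

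**Figure D3:**
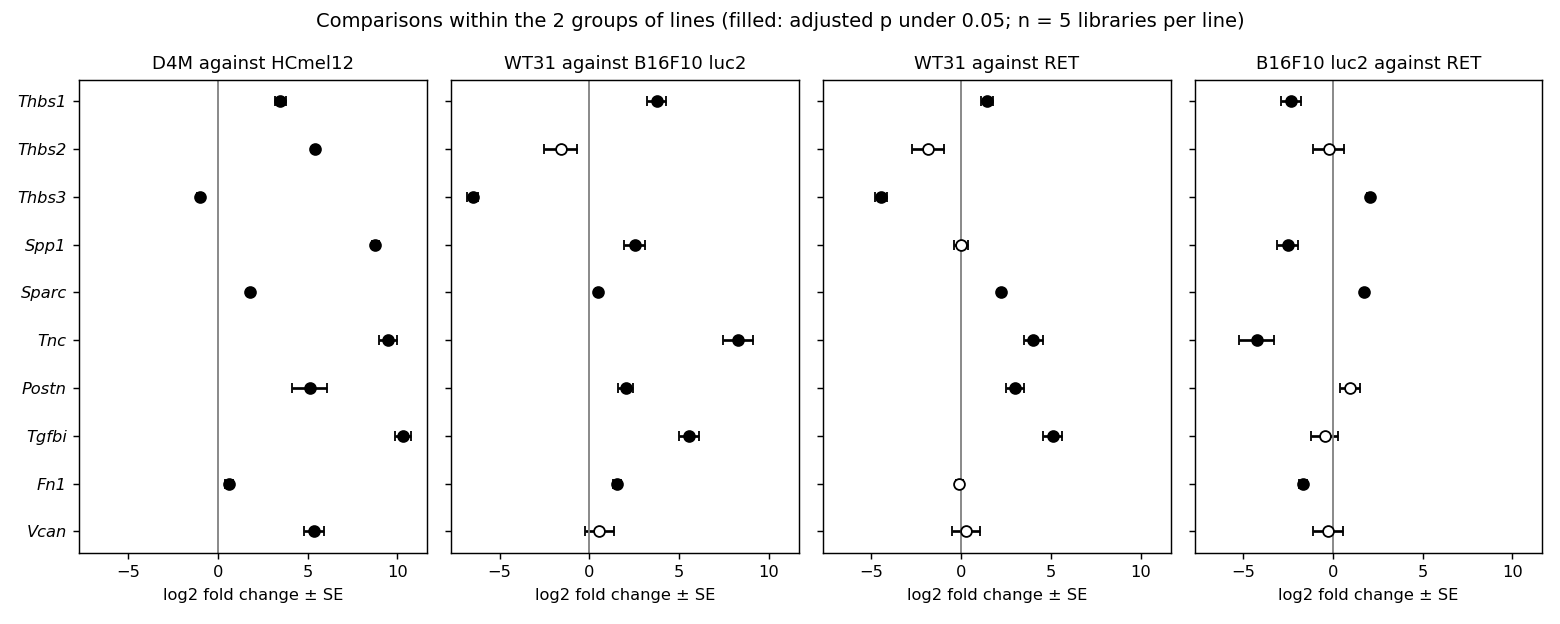
Log2 fold change with SE of the 10 genes in the 4 comparisons within LM- and HIM-melanoma (limma, n = 5 libraries per line), filled where adjusted p is under 0.05; the values for Tnc in B16F10 luc2 and Thbs2 in WT31, which had no counts, depend on the prior count of the fit. All symbols except Thbs3 lie right of 0 for D4M against HCmel12, and Thbs3 lies farthest left for WT31.

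For HIM- against LM-melanoma, genes that passed with the same sign in all 6 comparisons of lines were counted as commonly regulated. Of the 10 genes, Thbs2, Spp1 and Fn1 were commonly lower and none was commonly higher in HIM-melanoma, beside 6.4% (lower) and 6.53% (higher) of all tested genes. Thbs2 and Spp1 were chosen on this contrast, so that the count restates the choice and nothing is read from it. The 6 comparisons share the libraries of D4M and HCmel12. Tnc, Tgfbi and Vcan had 3 to 25 counts in HCmel12 libraries and 0 to 23 counts in those of RET and B16F10 luc2. HCmel12 thus stood between D4M and HIM-melanoma for Thbs2, Spp1 and Fn1, whereas for Tnc, Tgfbi and Vcan its libraries overlapped with those of RET.

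Related secreted matrix genes were listed from general knowledge, again with earlier results known, and 38 of 56 were tested. Between D4M and HCmel12 30 of them were higher and 6 lower in D4M (94.7% called, beside 72.5% of all tested genes), with a median difference of 2.72 on the log2 scale compared with 0.00 for all genes. Of the 38, 8 met the filter on low counts only through the libraries of D4M (Smoc2, Tnr, Tnn, Tnxb, Dmp1, Efemp1, Fbn1 and Ltbp2), so that a higher level in D4M was built into their test, as for 4.93% of all tested genes. Without such genes 22 were higher and 6 lower of 30 (93.3%, beside 71.5% of all genes), with a median of 1.62 compared with -0.04. Bgn, the small leucine-rich proteoglycan biglycan, had 1758 ± 113 CPM in D4M and at most 1.48 ± 0.58 CPM (WT31) elsewhere. Smoc2, a relative of Sparc, had 292 ± 34.9 CPM in D4M, while no other library exceeded 7 counts, and Dmp1, an acidic phosphoprotein of bone related to Spp1, had 124 ± 46.7 CPM and at most 2 counts. Fbn2, a microfibril protein, had 121 ± 27.5 CPM in D4M and 11.4 ± 2.3 CPM in WT31, with at most 1.75 counts in any other library. Ecm1, an extracellular glycoprotein of skin, had 395 ± 109 CPM in D4M and 30.9 ± 6.29 in HCmel12. Bgn, Smoc2, Dmp1 and Fbn2 were named for the width of the range of their line means, and their levels are a description. Ecm1 was named for its mean TPM, which a high level in D4M raises, so that its levels are a description as well.

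Commonly regulated were 6 of the 38, with 4 lower and 2 higher in HIM-melanoma, beside 6.4% (lower) and 6.53% (higher) of all tested genes. The median over the 6 comparisons was -1.09 compared with -0.00 for all genes. Without the 8 genes that met the filter only through D4M the 6 genes were 4 lower (13.3%, beside 6.22% of all genes) and 2 higher (6.67%, beside 6.87%) of 30, and the median was -0.66 compared with 0.04. Ccn3, Emilin2, Ecm1 and Agrn were lower, and Bcan and Fbln1 were higher in HIM-melanoma. These genes, apart from Ecm1, were named after their values were seen. Fbln1, a basement membrane glycoprotein, had 272 ± 33.4 CPM in WT31, 225 ± 17.6 in RET and 115 ± 15.3 in B16F10 luc2, compared with 87.6 ± 12.6 in HCmel12 and 12.1 ± 3.79 in D4M. Ccn3, a matricellular protein of the CCN family, had 14.2 ± 3.85 CPM in D4M, 4.6 ± 1.79 in HCmel12 and at most 0.604 ± 0.233 (RET) in HIM-melanoma. Emilin2 had 7.36 ± 2.4 CPM in D4M, 2.39 ± 0.653 in HCmel12 and at most 0.0228 ± 0.0339 in HIM-melanoma.

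Of the receptors for matricellular proteins, 24 of 26 were tested, and those named for the range of their line means (Cacna2d1, Itga3, Ptprz1 and Egfr) are given by their levels with no p-value. Their calls still enter the counts over the tested receptors. In D4M 19 were higher and 3 (Itga9, Ptprz1 and Scarb1) lower than in HCmel12 (91.7% called, beside 72.5% of all tested genes), with a median difference of 1.23. Stab1, Egfr, Tlr2 and Cacna2d1 met the filter only through D4M, and without them 15 were higher and 3 lower of 20 (90%, beside 71.5% of all genes, median 1.02). Cacna2d1, the calcium channel subunit known as a thrombospondin receptor in synapse formation, had 74.2 ± 4.96 CPM in D4M, while no other library exceeded 1 count. Itga3, an integrin subunit that pairs with Itgb1, had 527 ± 91.4 CPM in D4M and 5.29 ± 0.638 in HCmel12. Itgb1 itself had 1666 ± 119 CPM in D4M and between 596 and 854 CPM in the other lines. Egfr, which tenascin C repeats can bind, had 12.5 ± 2.3 CPM in D4M and at most 3.59 counts in any other library. Ptprz1, a phosphatase that binds Tnc, was highest in WT31 with 14.7 ± 5.01 CPM, and had 0.879 ± 0.323 CPM in HCmel12, with 0 to 2 counts in the remaining 15 libraries. Calr, the endoplasmic chaperone calreticulin that also serves as a thrombospondin co-receptor at the surface, had line means from 1614 to 2281 CPM. Commonly lower in HIM-melanoma were Itgb5, Itga3, Lrp1 and Calr (16.7%, beside 6.4% of all tested genes, and 20% beside 6.22% without the genes that met the filter only through D4M), of which Itgb5 and Lrp1 were named after their values were seen, and none was commonly higher. Lrp1, which clears thrombospondins from the cell surface, had 841 ± 36.9 CPM in D4M, 75.7 ± 16.7 in HCmel12 and 6.7 ± 1.53 to 48.5 ± 6.14 in HIM-melanoma.

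Of the genes for matrix assembly and processing, 30 of 34 were tested, and between D4M and HCmel12 16 were higher and 9 lower in D4M (83.3% called, beside 72.5% of all tested genes, median 0.54). Without Fam20a, Loxl1 and Has2, which met the filter only through D4M, 13 were higher and 9 lower of 27 (81.5%, beside 71.5% of all genes, median 0.11). Csgalnact1, Chsy3, Adamts20 and Loxl1 were named for the range of their line means and are given by their levels with no p-value, while their calls still enter the counts over the tested genes of the list. Genes of chondroitin sulfate synthesis, the chains of which are carried by Vcan, differed in which line was highest. Csgalnact1, which starts these chains, had 94 ± 14.7 CPM in D4M, 0.967 ± 0.113 in HCmel12 and between 0 and 2 counts in each HIM-melanoma library. Chsy3, which elongates them, had 0.153 ± 0.2 CPM in D4M but 101 ± 14.9 in HCmel12, 126 ± 9.36 in B16F10 luc2, 128 ± 5.49 in RET and 42.4 ± 14.8 in WT31. Adamts20, a versican-cleaving protease, was lowest in D4M as well, with at most 2 counts in a library, and had 50.7 ± 6.56 CPM in WT31 and 10.9 ± 1.89 in HCmel12. Loxl1, an elastin cross-linking oxidase, had 22.8 ± 5.19 CPM in D4M and at most 9 counts per library elsewhere. Chpf had 96.8 to 227 CPM and Pofut2, which fucosylates thrombospondin repeats, 67.6 to 130.4 CPM over the line means. Adamts4, Fam20a, Has2 and Csgalnact1 were commonly lower (13.3%, beside 6.4% of all tested genes, median of the list -0.73) and none was commonly higher. A level in HIM-melanoma below that in D4M was built into the test of Fam20a and Has2, and without the 3 genes that met the filter only through D4M 2 of 27 were commonly lower (7.41%, beside 6.22% of all genes, median -0.59). Adamts4, also a versicanase, had 64 ± 5.63 CPM in D4M, 71.8 ± 11.8 in HCmel12 and 17 to 22.4 CPM in HIM-melanoma, and was named after its values were seen, as were Fam20a and Has2.

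**Figure D4:**
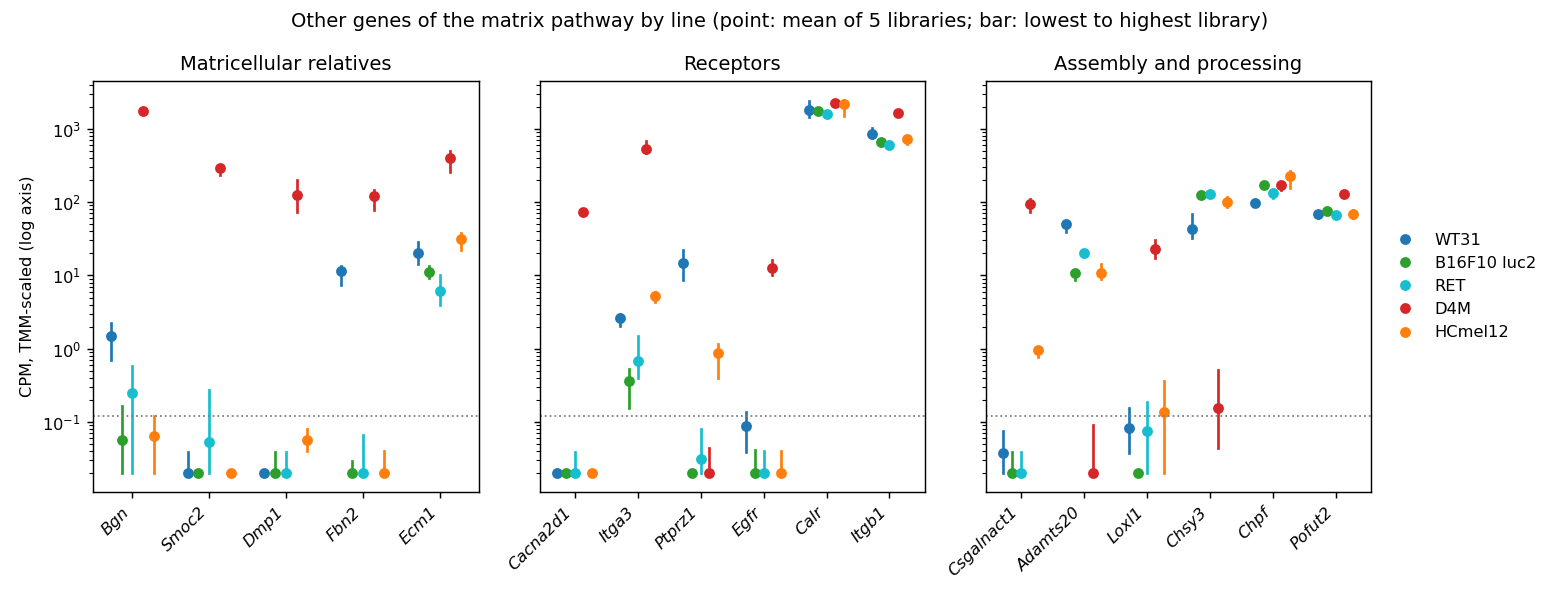
Level of the named genes of the 3 lists in CPM with TMM scaling on a log axis; points are means of 5 libraries, bars run from the lowest to the highest library, and libraries at 0 are drawn at the lower edge. D4M is highest for Bgn (1758 CPM), Cacna2d1 and Csgalnact1, and lowest for Chsy3 (0.153 CPM).

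The genes whose log2 CPM followed Thbs2 most closely over the 25 libraries were Fxyd5, Bhlhe22, Gm5124, Fgl2 and Man1a (Pearson's r 0.98 each). Fxyd5 had 467 CPM in D4M, 103 in HCmel12 and 9.33 to 13.5 in HIM-melanoma, and Bhlhe22 had 19.7 CPM in D4M, 1.11 in HCmel12 and none in HIM-melanoma. For Spp1 these were Rin1 (r = 0.99), Slc41a2, Cd9, Slc4a11 and Nadk (r = 0.98 each). Cd9 had 904 CPM in D4M, 174 in HCmel12 and 40.7 to 98.9 in HIM-melanoma. Among the 10 genes, the closest to Thbs2 were Spp1 (r = 0.91) and Fn1 (r = 0.89), and the closest to Spp1 was Vcan (r = 0.94). Among all tested genes Spp1 ranked 179 and Fn1 278 in likeness to Thbs2, and Vcan ranked 155 in likeness to Spp1. Thbs2 and Spp1 were chosen on the same contrast of lines, so that their correlation restates the choice. Postn (r = -0.25), Sparc (r = 0.24) and Thbs3 (r = 0.26) had the lowest values with Thbs2. These values are over 5 lines of 5 libraries each and mainly compare the lines.

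The ratio of estimated counts to TPM of a gene, relative to the median gene of the library, follows the length of the transcripts to which the reads were assigned. For Vcan, which is spliced into isoforms of very different length, this ratio was 2.13, 1.78, 2.77 and 3.11 in D4M replicates 2 to 5. These libraries had 1130, 367, 562 and 1261 counts. The library with the fewest counts had the lowest ratio and the one with the most the highest. Replicate 2 (1130 counts, 2.13) and replicate 4 (562 counts, 2.77) had the opposite order. Thbs2 gave 2.45 to 2.47 in the same libraries and 2.39 to 2.44 in HCmel12, and Tnc 2.92 to 2.97 in D4M and 2.92 to 2.96 in WT31. Thbs1, Sparc and Fn1 had at least 50 counts in all 24 libraries with TPM and could be tested. Their line means differed by 0.03, 0.03 and 0.05 on the log2 scale, where the median range over 9325 genes was 0.06, and Thbs1 (adjusted p = 0.00085) and Sparc (adjusted p = 0.00069) passed the test, beside 47.8% of all genes, and Fn1 did not (adjusted p = 0.084). Thbs1 and Sparc did not pass when the ratios were set relative to the least variable genes (adjusted p = 0.41 and 0.76).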

How the data were processed

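RNA-seq was analysed in 25 libraries, 5 biological replicates of each of 5 lines. The authors trimmed reads with Trim Galore (0.6.4) and assigned them to GRCm38.p6 with kallisto (0.4.6 in the submitters' processing notes). They deposited estimated counts per gene without normalization, which were used unrounded in voom. The authors also deposited TPM, scaled by transcript length, for 24 of the libraries used here. Kallisto divides reads among matching transcripts, and the annotation release, the strand setting and the step from transcripts to genes are not given in the sources used here. Symbols and coordinates came from GENCODE vM21 (GRCm38), and 54487 of 55385 identifiers matched with their version.

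Counts were filtered with filterByExpr (edgeR 4.0.16), TMM-scaled and fitted with voom and limma (3.58.1, R 4.3.3), with one mean per line over all 25 libraries and Benjamini-Hochberg adjustment per comparison over 15247 genes at 0.05. The design with 2 groups of lines follows the study. The 10 genes and the 3 lists of related genes were chosen with earlier results of these data known. From each list the 4 genes with the widest range of line means and the 2 with the highest mean TPM were named, and for Thbs2 and Spp1 the 5 genes with the highest Pearson's r. Where no library of a line exceeded 3 counts, the fold was taken against a floor of 3 counts per library, which covers counting error only. The procedures were tested on simulated data. Alternatives were library size or DESeq2 (1.42.0) size factors, edgeR's quasi-likelihood and DESeq2's Wald test, other filters, fits of each pair of lines, a replicate block, log2 TPM with pseudocounts of 1 and 0.1 (genes with at least 1 TPM in at least 4 libraries), stricter thresholds, and leaving out each library. Leaving out D4M replicate 1 and HCmel12 replicate 4 together, counting without genes that met the filter only through D4M, and line means without 1 library were added after seeing the data.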

Additional observations from a re-analysis of the deposited data

Results flagged for a closer look

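Gaps between libraries were measured on log2 CPM after adding 0.1 CPM, in 47 sets of 5 libraries (a gene in a line). Lines with at most 3 counts in every library were left out. In 3 sets the distance of a library from the nearest other took more of the whole range than a gap test at the 95% level allows. Chance alone marks about 1 in 20 such sets. On unlogged CPM other libraries can be marked, and this was not tested. Thbs3 in B16F10 luc2 replicate 1 was at 21.2 CPM, while the other 4 libraries had 25.6 to 27.1 CPM. Sparc in B16F10 luc2 replicate 2 was at 2734 CPM, above the 2461 to 2524 CPM of the others. Sparc in HCmel12 replicate 4 was at 969 CPM, below the 1208 to 1320 CPM of the others, and this library was also the lowest of its line for Thbs1, Thbs2 and Tnc.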

How the results depend on the processing

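The number of commonly regulated genes among the 10 was 3 under all settings except a minimum of 10 counts in every library, under which 4 of the 10 genes were tested and 2 were counted. With this minimum the calls were 4 for D4M against HCmel12, 4 for WT31 against B16F10 luc2 and 2 for WT31 against RET. The same minimum gave 3 commonly regulated and 16 D4M to HCmel12 calls among related matrix genes, and 1 and 14 among assembly genes. Fits of only the lines compared and log2(TPM + 1) each left 2 commonly regulated assembly genes, and requiring a log2 fold change of 1 or more in size left 3 matrix genes and 1 receptor. Setting length ratios relative to the least variable genes gave 2343 genes with a length difference instead of 4459, and leaving out libraries gave 4164 to 4664. Leaving out each library gave 10 to 10 calls for D4M against HCmel12, 8 to 8 for WT31 against B16F10 luc2, 6 to 7 for WT31 against RET and 6 to 7 for B16F10 luc2 against RET. For related matrix genes, receptors and assembly genes the counts were 5 to 7, 3 to 5 and 4 to 4 commonly regulated and 34 to 36, 21 to 23 and 24 to 27 for D4M against HCmel12. Without both D4M replicate 1 and HCmel12 replicate 4 they were 5, 6 and 4 commonly regulated and 34, 21 and 27 for D4M against HCmel12, and 7 of the 10 genes were called for WT31 against RET. Without genes that met the filter only through D4M, 2 assembly genes were commonly regulated instead of 4, as Fam20a and Has2 were left out. Scaling by library size moved the median of all genes by -0.18 to 0.23 on the log2 scale. Spp1 in WT31 against RET turned from -0.00 to 0.023 with library size, 0.0029 with DESeq2 size factors, 0.0105 with the minimum of 10 counts, 0.082 and 0.14 with TPM (pseudocounts 1 and 0.1), and 0.09, 0.11, 0.39 and 0.22 without WT31 replicate 1, WT31 replicate 5, RET replicate 3 and RET replicate 5 (-0.34 to 0.39 over all left-out libraries). Fn1 in WT31 against RET turned to 0.062 and 0.064 with TPM, and to 0.02, 0.05 and 0.11 without WT31 replicate 2, WT31 replicate 5 and RET replicate 3 (-0.26 to 0.11). Sparc in WT31 against D4M became 0.026 and 0.026 with TPM, although the main fit called it lower in WT31 (-0.25, adjusted p = 0.01 in limma). With library size it was -0.029 and not called (adjusted p = 0.77). Vcan with TPM became 0.22 and 0.67 in WT31 against HCmel12 and 0.038 and 0.099 in RET against HCmel12. Thbs2 in B16F10 luc2 against RET became 0.13 without B16F10 luc2 replicate 4 and 0.41 without RET replicate 5 (-0.72 to 0.41). None of these reversed values passed the test, and the cause was not tested. Of the other single-gene values (the 10 genes in each pair of lines and the 3 length tests), 1180 kept direction and call, 28 lost and 22 gained a call under the settings that kept each library and the added one without both libraries, and 2546 kept, 5 lost and 12 gained a call when 1 library was left out. Libraries with the same replicate number did not deviate together (correlations -0.09 to 0.10), and with the replicate block the calls were 10 for D4M against HCmel12, 9 for WT31 against B16F10 luc2, 7 for WT31 against RET, 6 for B16F10 luc2 against RET and 3 commonly regulated. Depth limits the statements on Thbs2, Tnc and Tgfbi in lines with a few counts per library.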
